A study of Rattus norvegicus with 2 samples.

Results

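The genes described here make the sugar precursors of hyaluronan, assemble the polymer, break it down or bind it. They were chosen by symbol among the 32623 genes listed for a single-cell RNA dataset of rat carotid arteries, and all 10 of the 10 symbols were listed, each on 1 row. The choice was made with the high level of Gfpt2 in part of the fibroblasts already known, so differences between cell types are a description of how the list was made. Carotid arteries of male SD rats were digested with trypsin and collagenase, and the RNA of single cells was counted in 2 libraries of the 10x Genomics platform. The control library held the normal left arteries. The case library held the right arteries of the same 2 rats, removed 28 days after the wall had been injured with an inflated balloon, a model of neointimal hyperplasia in which the external carotid artery was also tied. The rats were 8 weeks old at the start according to the methods and 12 weeks old in the labels. The arteries of the 2 rats were pooled in each library, so there is 1 library per group, no replicate and no test between groups. The library of a cell was read from the suffix of its barcode, and which suffix is which group rests on the numbers of barcodes that the study states for each. All intervals below are exact 95% intervals of counting error and do not cover differences between rats or between arteries. Those of levels and ratios treat each UMI as an independent count, so they also leave out the spread between cells.

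Hyaluronan is a long unbranched sugar chain of the extracellular matrix built from alternating N-acetylglucosamine and glucuronic acid units. The hexosamine pathway supplies UDP-N-acetylglucosamine, UDP-glucose dehydrogenase supplies UDP-glucuronic acid, and synthases in the plasma membrane join these units and extrude the chain. In injured arteries hyaluronan is known to accumulate in the neointima and the adventitia, where it binds versican, Cd44 and proteins of inflammation. Gfpt1 and Gfpt2 encode the enzymes of the first and rate-limiting step of the hexosamine pathway, and Uap1 the enzyme of its last step. Ugdh encodes UDP-glucose dehydrogenase, Has1, Has2 and Has3 are the synthases, Hyal1 and Hyal2 are hyaluronidases, and Tnfaip6 (TSG-6) is a secreted protein that transfers heavy chains of inter-alpha-inhibitor onto hyaluronan.

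The promoters of Uap1, Ugdh, Has1 and Tnfaip6 are shown because Uap1 and Tnfaip6 differed most between the libraries in fibroblast-like cells, and Ugdh and Has1 are the precursor enzyme and the synthase beside them with a window. The RefSeq tables used here, of the build GRCr8, held a promoter window for 7 of the 10 members, while Gfpt2, Has2 and Has3 had no entry. Each line gives the 250 bases before the start of the gene, 5′ to 3′ on the strand of the gene. Capitals mark matches, on either strand, to an AP-1 motif (TGANTCA), the core of the cAMP response element (TGACGT) or a GC box (GGGCGG).
Uap1, chr13:84910240-84910489, minus strand: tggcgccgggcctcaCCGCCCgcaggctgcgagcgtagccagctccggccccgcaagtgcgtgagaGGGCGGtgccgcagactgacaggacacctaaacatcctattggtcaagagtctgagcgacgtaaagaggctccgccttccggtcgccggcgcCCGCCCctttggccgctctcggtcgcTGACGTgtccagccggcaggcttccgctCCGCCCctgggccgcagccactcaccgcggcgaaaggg
Ugdh, chr14:43202268-43202517, plus strand: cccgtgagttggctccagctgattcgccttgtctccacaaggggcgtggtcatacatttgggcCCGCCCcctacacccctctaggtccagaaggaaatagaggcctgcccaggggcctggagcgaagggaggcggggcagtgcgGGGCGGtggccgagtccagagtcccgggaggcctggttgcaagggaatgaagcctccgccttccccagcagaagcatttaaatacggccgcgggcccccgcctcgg
Has1, chr1:67378445-67378694, minus strand: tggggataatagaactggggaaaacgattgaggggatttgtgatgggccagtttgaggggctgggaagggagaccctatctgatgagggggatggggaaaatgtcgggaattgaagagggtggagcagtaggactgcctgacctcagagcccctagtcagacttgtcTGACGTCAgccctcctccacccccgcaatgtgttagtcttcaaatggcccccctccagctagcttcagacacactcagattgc
Tnfaip6, chr3:56911148-56911397, plus strand: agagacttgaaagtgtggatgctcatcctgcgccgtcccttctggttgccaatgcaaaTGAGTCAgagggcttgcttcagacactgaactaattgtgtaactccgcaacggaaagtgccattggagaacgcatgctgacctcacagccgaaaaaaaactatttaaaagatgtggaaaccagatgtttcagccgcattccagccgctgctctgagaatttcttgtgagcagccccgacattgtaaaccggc

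The motifs were chosen with these sequences in view, so their matches are a description of the letters and not of a site. The AP-1 motif was found in the Tnfaip6 window alone among the 7 members, and in 6.34% of all 33469 windows of this length. The TGACGT core was found in the windows of Uap1 and Has1 and in 6.95% of all windows. In Has1 it formed the palindrome TGACGTCA, which matches on both strands. A GC box was present in 5 of the 7 members (Gfpt1, Uap1, Ugdh, Hyal1 and Hyal2) and in 30.5% of all windows, with 4 matches in Uap1 and 2 in Ugdh. Neither a TATA box (TATAAA, 12.9% of all windows) nor an NF-kB motif (GGG, any 2 bases and TTTCC, 1.30%) was found in any of the 7. The share of G and C was 70.4% in Uap1, 66.0% in Ugdh, 54.8% in Has1 and 48.8% in Tnfaip6, against a median of 51.2% over all windows.

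The control library held 3321 barcodes with a median of 5981 UMIs (unique molecular identifiers, each counting 1 captured RNA molecule), and the case library 5656 barcodes with a median of 4778. After filtering, 2718 control and 4913 case barcodes were kept, and 89.1% and 89.6% of them were assigned to a cell type by marker genes. VSMC-like cells (vascular smooth muscle) numbered 1584 in control and 2673 in case, fibroblast-like cells 720 and 1390, endothelial-like cells 50 and 189, and macrophage-like cells 43 and 98. Median UMIs per fibroblast-like cell were 10673.5 in control and 5151 in case. Dcn, a fibroblast marker, reached 14888 CPM (UMIs per 1e+06 UMIs, with the cells of one type and library added up) in control fibroblast-like cells and 344 in control VSMC-like cells, while Tagln, a VSMC marker, reached 341 and 12670. The median fibroblast-like cell held 424 UMIs of fibroblast markers and 8.5 of VSMC markers in control, and 171.5 and 4 in case. Fibroblast-like cells near a limit of the assignment were 2.78% in control and 4.10% in case. Schwann-like cells numbered 11 and 34 and are not compared. Of the barcode sequences, 21 were found in both libraries, and leaving out the 23 kept cells that carried them changed no count below.

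Most members were found at higher levels in fibroblast-like cells than in VSMC-like, endothelial-like and macrophage-like cells. Barcodes assigned to no type, 10.9% of those kept in control and 10.4% in case, lay between. They held Gfpt2 at 381 CPM in control and 892 in case, and Tnfaip6 at 1370 and 998. Which cells these are was not tested. In control, 7 of 9 members with at least 50 UMIs over both types were at least 2-fold higher in fibroblast-like than in VSMC-like cells, where 12.4% of all genes were. In case, 6 of 9 members were, against 12% of all genes. At least 10-fold higher levels were found for 6 members in control and 5 in case, against 3.35% and 3.09% of all genes. Against endothelial-like cells, 7 of 8 members compared in control (19.6% of all genes) and 7 of 7 in case (15.4%) were at least 2-fold higher in fibroblast-like cells. Against macrophage-like cells, 6 of 7 (34.7%) and 7 of 7 (27.5%) were.

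**Figure D1:**
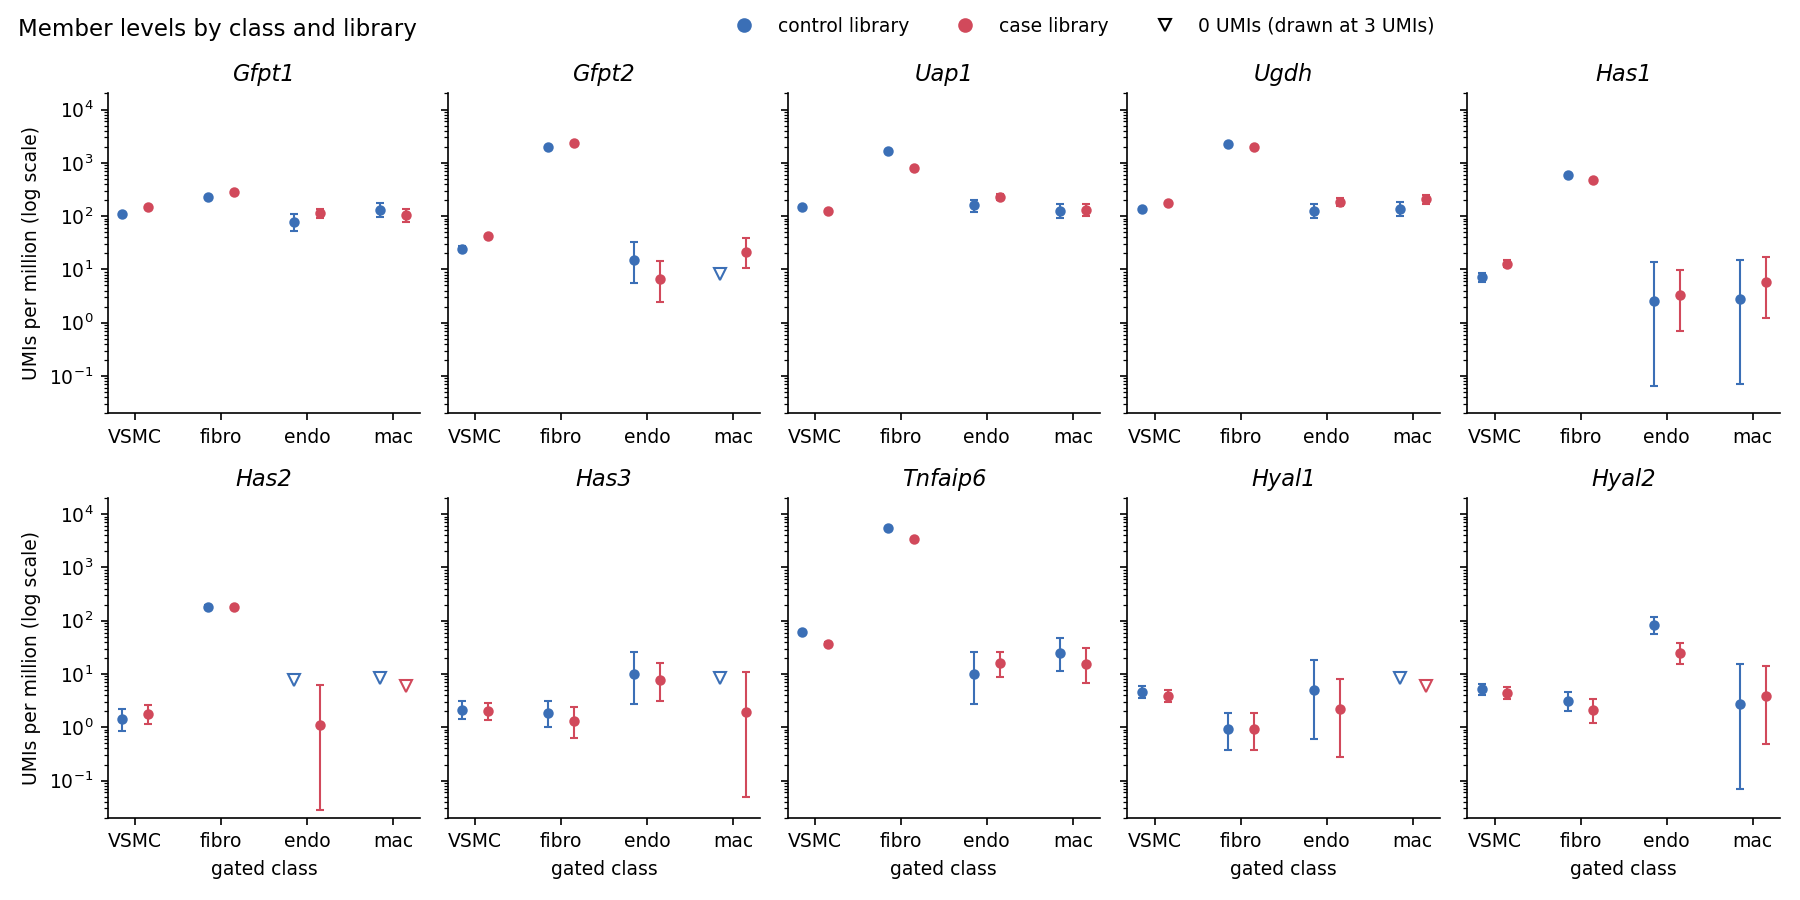
Level of each member (CPM, log axis) in VSMC-like, fibroblast-like (fibro), endothelial-like (endo) and macrophage-like (mac) cells of the control and case libraries, with exact 95% Poisson bars. Gfpt2 stood at 1945 and 2396 in fibroblast-like cells and at or below 41.6 in the other types shown, while Hyal2 was highest in endothelial-like cells; open triangles mark 0 UMIs and are drawn at the level of 3 UMIs.

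Among the enzymes of the hexosamine pathway, Gfpt2 was at 1945 (1914 to 1976) in control and 2396 (2361 to 2431) in case fibroblast-like cells. In VSMC-like cells it was at 24.4 and 41.6, so the fibroblast-like level was 79.6-fold (71.4 to 89.1) and 57.6-fold (53.2 to 62.4) higher. Gfpt1, which encodes the same activity, differed less between these types. It was at 232 (222 to 244) and 279 (267 to 291) in fibroblast-like cells and at 109.5 and 148 in VSMC-like cells, a ratio of 2.12 in control and 1.88 in case. Uap1 was at 1681 (1652 to 1710) in control and 794 (775 to 815) in case fibroblast-like cells, with 149.8 and 126 in VSMC-like cells. The fibroblast-like level of Uap1 was thus 11.2-fold higher in control and 6.28-fold higher in case.

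Ugdh, which commits UDP-glucose to glucuronic acid, followed Uap1 in this pattern. It was at 2242 (2208 to 2276) in control and 1962 (1931 to 1994) in case fibroblast-like cells, and at 137.5 and 177 in VSMC-like cells. Outside fibroblast-like cells, the intervals of Uap1 and Ugdh overlapped between VSMC-like, endothelial-like and macrophage-like cells of the control library. In the case library Uap1 was higher in endothelial-like cells, at 231 (200 to 264), than in VSMC-like cells, at 126 (121 to 132).

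Of the synthases, Has1 and Has2 were found in fibroblast-like cells, and Has3 was barely detected in any type. Has1 was at 582 (565 to 600) in control and 484 (469 to 500) in case fibroblast-like cells, and VSMC-like cells held 7.16 and 12.8. Has2 was at 184 (175 to 194) and 177 (168 to 187) in fibroblast-like cells and rested on 19 and 27 UMIs in all VSMC-like cells of control and case. Neither gene exceeded 3 UMIs in endothelial-like or macrophage-like cells of a library. Has3 held 14 and 10 UMIs in fibroblast-like cells, 29 and 31 in VSMC-like cells, and 4 and 7 in endothelial-like cells.

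Tnfaip6 was at 5511 (5458 to 5564) in control and 3353 (3312 to 3394) in case fibroblast-like cells, and 91.1-fold higher there than in VSMC-like cells of both libraries. The hyaluronidases showed another pattern. Hyal1, a lysosomal enzyme, was lower in fibroblast-like than in VSMC-like cells, with a ratio of 0.197 (0.0763 to 0.431) in control and 0.234 (0.0903 to 0.513) in case, on 7 fibroblast-like UMIs in each library. Hyal2, which is anchored to the cell surface, was highest in endothelial-like cells, at 83.1 (57.2 to 117) in control and 24.7 (15.5 to 37.5) in case. In the other types with at least 40 cells Hyal2 lay between 2.10 and 5.24. Hyal1 and Hyal2 are neighbours in the genome, and how reads between them were assigned is not given in the sources used here.

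The VSMC-like levels of 4 members, as a percent of the fibroblast-like level, were close to the lowest among genes well measured in fibroblast-like cells. These are genes at 500 CPM or more there. Has2 in both libraries, Has1 in case and the marker Pdgfra were below that level, so they lie outside this set. For the 313 genes at 500 CPM or more in control fibroblast-like cells, the median VSMC-like level was 76.3% of the fibroblast-like level, and the lowest was 0.505%. Gfpt2 was at 1.26%, Has1 at 1.23%, Tnfaip6 at 1.10% and Has2 at 0.761%, beside 1.18% for Dpt, 1.52% for Pdgfra and 2.31% for Dcn, fibroblast markers that VSMCs should lack and that were also used to assign the cells. In case the corresponding values were 1.74%, 2.65%, 1.10% and 0.995% for the members and 1.52%, 1.78% and 2.67% for the markers. No expression in VSMC-like cells is read from counts at this level, and their source (free RNA, doublets or a low level in VSMCs) was not tested. Ugdh (6.13% in control, 9.0% in case), Uap1 (8.92% and 15.9%) and Gfpt1 (47.1% and 53.1%) were higher. So were other fibroblast markers used to assign the cells, Lum (11.4% and 8.05%), Serpinf1 (8.24% and 8.67%) and Col1a1 (10.3% and 10.9%). The markers given here thus spread from 1.18% to 11.4% in control, and Ugdh and Uap1 of control lay within that spread. The source of the VSMC-like counts of Ugdh and Uap1 was not tested either.

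**Figure D2:**
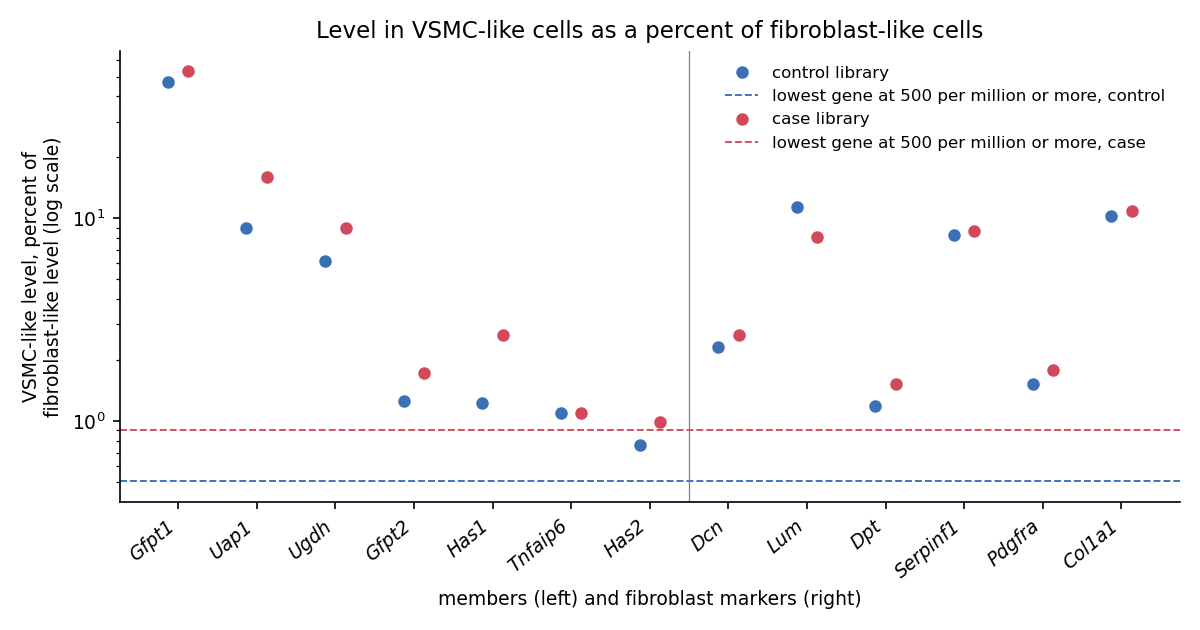
Level in VSMC-like cells as a percent of the level in fibroblast-like cells (log axis) for 7 members and 6 fibroblast markers in each library. Has2, Tnfaip6, Has1 and Gfpt2 lay between 0.761% and 2.65%, near the dashed lines that mark the lowest gene among those at 500 CPM or more (0.505% in control, 0.902% in case). Has2 in both libraries and Has1 in case were below 500 CPM and are not among those genes.

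Detection in single cells was compared after cells were thinned to 1000 UMIs, since control fibroblast-like cells were deeper. Cells with fewer UMIs were dropped. In this measure Gfpt2 was found in 45.5% (41.8 to 49.3) of 694 control and 50.3% (47.7 to 53.0) of 1387 case fibroblast-like cells. Unthinned, it was found in 73.9% and 71.7%. Has1 was found in 33.6% (30.1 to 37.2) of control and 29.2% (26.8 to 31.7) of case cells, unthinned in 75.7% and 63.7%. Has2 was found in 7.93% (6.03 to 10.2) and 8.15% (6.76 to 9.71), unthinned in 23.2% and 19.6%. In VSMC-like cells thinned alike the shares were 3.25% and 2.98% for Gfpt2, 1.08% and 1.05% for Has1, and 0.50% and 0.0377% for Has2. Thinning kept 1200 of 1584 control and 2655 of 2673 case VSMC-like cells, so the dropped cells differ between the libraries.

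Has1 was detected in fibroblast-like cells with Has2 and in those without. Of the 55 control cells with a Has2 UMI, 24 also had a Has1 UMI (43.6%), against 32.7% of the cells without Has2. In case 36 of 113 had both (31.9%), against 29.0%. Gfpt2 went with Has2 more than with Has1. The mean number of Gfpt2 UMIs per 1000 was 4.09 in control cells with Has2 and 1.29 in those without, and 5.38 and 1.74 in case. For cells with and without Has1 it was 1.90 and 1.32 in control, and 2.53 and 1.83 in case. Across the thinned cells, Gfpt2 correlated with Ugdh at a Spearman rho of 0.52 in control and 0.56 in case. It correlated with Tnfaip6 at 0.50 in both and with Uap1 at 0.50 and 0.38. The values were lower with Has2, at 0.23 and 0.22, and with Has1, at 0.10 and 0.12. These correlations describe cells that share a library, and they carry no test.

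Over 10 class and library sums, of the 5 types with at least 10 cells in both libraries, the genes most like Gfpt2 in level were Olfml3, Serping1, Gsn, Taf4b and Gpc3, with Pearson r between 0.96 and 0.98 among 3214 genes. The points share libraries and include 2 fibroblast-like sums that set most of the range.

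Between the libraries, Uap1 was the single member past 2-fold in fibroblast-like cells. Of 7 members with at least 50 UMIs over both libraries, 1 was lower in case and 0 were higher, where 3.8% of 8918 genes were lower and 2.1% higher. Uap1 fell from 1681 to 794 CPM, a log2 ratio of -1.08 (-1.13 to -1.04). With cells thinned to 1000 UMIs this ratio was -0.93, short of 2-fold. Tnfaip6 was lower as well, with a log2 ratio of -0.72 (-0.74 to -0.69) that did not reach 2-fold. Gfpt2 was higher in case at 0.30 (0.27 to 0.33), and Gfpt1 at 0.26 (0.17 to 0.35). Ugdh was at -0.19 (-0.22 to -0.16), Has1 at -0.27 (-0.33 to -0.20) and Has2 at -0.06 (-0.16 to 0.05), beside a median of -0.11 over all genes compared and of -0.19 over the 7 members. With a stricter assignment of cells, which kept 496 control and 781 case fibroblast-like cells, Has2 was at 0.63. Thus the RNA of Gfpt1 and Gfpt2, of the first hexosamine step, was slightly higher in case, within 2-fold, and that of Uap1 was lower. Enzyme activity was not measured. The mix of fibroblast-like cells also differed between the libraries, as given below, and its part in these ratios was not tested. In the sub-cluster below with most Gfpt2, Gfpt2 was lower in case, at -0.44. Has3, Hyal1 and Hyal2 held 24, 14 and 40 UMIs over both libraries and were not compared.

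**Figure D3:**
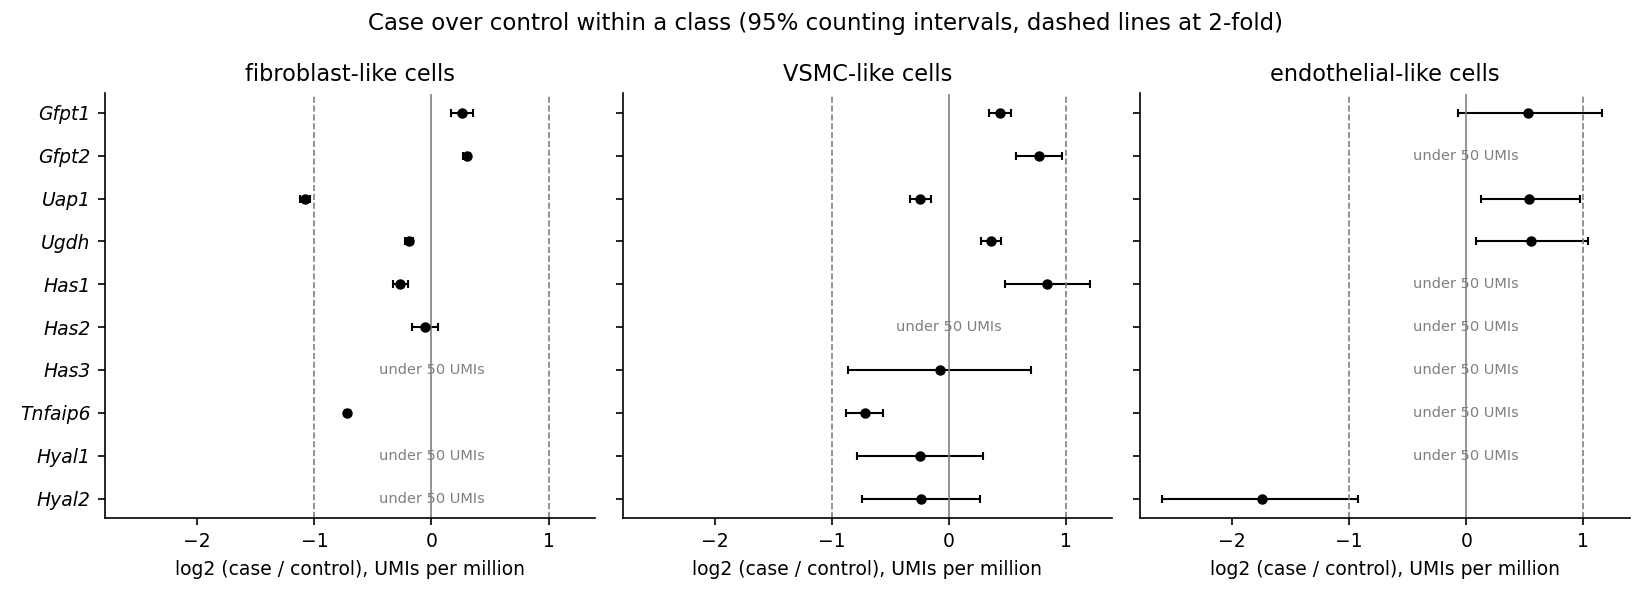
Log2 ratio of case over control for each member within fibroblast-like, VSMC-like and endothelial-like cells, with exact 95% counting intervals and dashed lines at 2-fold. Uap1 in fibroblast-like cells (-1.08) and Hyal2 in endothelial-like cells (-1.75) are the values beyond 2-fold among members with at least 50 UMIs, the others not being drawn.

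In VSMC-like cells 0 of 9 members compared were past 2-fold, where 1.5% of 10313 genes were higher in case and 3.5% lower. With 1 library per group no test across genes was run. Gfpt1 was at 0.43 (0.34 to 0.53) and Ugdh at 0.36 (0.28 to 0.45), beside a median of -0.14 over all genes. After thinning to 1000 UMIs, which dropped 384 control and 18 case cells as too shallow, they were at 0.15 and 0.03. Uap1 was at -0.24 (-0.34 to -0.15), a smaller difference than in fibroblast-like cells. The VSMC-like ratios of Gfpt2 (0.77), Has1 (0.84) and Tnfaip6 (-0.72) rest on the low counts described above. Of the 820 Tnfaip6 UMIs in control VSMC-like cells, 48.0% lay in 17 barcodes called doublets, which held 1.61% of the UMIs of that class. Without the called doublets the log2 ratio of Tnfaip6 was 0.20. Only 1 case VSMC-like cell was called. Of all case cells 0.0407% were called, where 5% was expected, and the reason was not examined. The value of 0.20 is thus corrected almost in control alone. The same barcodes held 37.1% of the Has1 and 18.7% of the Gfpt2 UMIs of control VSMC-like cells. A shallow cluster led by haemoglobin genes held 277 of the cells assigned to VSMC-like, and without it the ratios of Gfpt1, Ugdh and Uap1 were 0.43, 0.37 and -0.25.

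In endothelial-like cells 1 of 4 members compared was past 2-fold, where 9.78% of 3222 genes were higher in case and 9.62% lower. Hyal2 fell from 83.1 to 24.7 CPM, a log2 ratio of -1.75 (-2.60 to -0.93), on 33 UMIs in 50 control cells and 22 UMIs in 189 case cells. Of these cells 16.0% in control and 16.9% in case lay near a limit of the assignment. Uap1, at 0.54 (0.13 to 0.97), and Ugdh, at 0.55 (0.09 to 1.04), were higher in case without reaching 2-fold. The interval of Gfpt1, 0.53 (-0.07 to 1.16), included 0. The mix of endothelial cells differed between the libraries. In a clustering of all cells, a cluster led by Pkhd1l1 and Vwf held 54 control and 159 case cells. Another, led by Fabp4, Cdh5 and Plvap, held 10 and 159. Of their cells 66.2% and 56.2% were assigned to endothelial-like. The part of this mix in the ratios was not tested. After thinning to 1000 UMIs, Hyal2 was found in 2.04% (0.0517 to 10.9) of control and 2.65% (0.864 to 6.07) of case cells, with 1 control cell behind the first value. At 2000 UMIs it was found in 12.2% (4.63 to 24.8) and 5.56% (2.70 to 9.98), with overlapping intervals. Unthinned it was found in 34.0% and 10.6%, at median depths of 7312.5 and 4158 UMIs.

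Other genes of the hyaluronan pathway were read from lists chosen with earlier results of these data known. Of 12 further hexosamine genes compared in fibroblast-like cells, 1 was higher and 1 lower past 2-fold, with a median log2 ratio of -0.06. Over all genes compared in these cells, 2.1% were higher and 3.8% lower. Hk2, a hexokinase that phosphorylates glucose ahead of the pathway, rose from 1146 to 2369 CPM, a log2 ratio of 1.05 (1.01 to 1.08). Hk1, the hexokinase of most tissues, fell from 17.8 to 7.74, a ratio of -1.20 (-1.67 to -0.75). Gnpnat1, which acetylates glucosamine 6-phosphate between Gfpt and Uap1, was at -0.79 (-0.995 to -0.586). Of the 5 other genes of UDP-glucose metabolism 0 were past 2-fold, and Ugp2, which makes UDP-glucose, was at 177 and 167 CPM.

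Among genes that bind hyaluronan, 1 of 4 compared in fibroblast-like cells was higher and 1 lower, where 2.1% and 3.8% of all genes were. Cd44, the main hyaluronan receptor, rose from 278 to 654 CPM in fibroblast-like cells, a log2 ratio of 1.23 (1.16 to 1.31). Ptx3, a pentraxin that joins the matrix made with Tnfaip6, fell from 64.1 to 26.2, a ratio of -1.29 (-1.53 to -1.05). Versican (Vcan), at 437 and 492, was within 2-fold. Of 5 further genes of hyaluronan breakdown compared, 0 were past 2-fold. Hk2 and Cd44 were past 2-fold in VSMC-like cells as well, with ratios of 1.18 and 1.19.

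Immediate-early and inflammatory genes were read in the same cells, since tissue digestion can induce them. Of 10 genes on the immediate-early list compared in fibroblast-like cells 0 were past 2-fold, with a median of 0.09. This list includes Hspa1b, a heat shock gene, at 8472 CPM in control and 10323 in case. Of 9 inflammatory genes 3 were lower and 0 higher, with a median of -0.62. Over all genes compared in fibroblast-like cells, 3.8% were lower and 2.1% higher. Cxcl1, a neutrophil chemokine, fell from 3370 to 1403 CPM, a ratio of -1.26, and Tnfaip3 and Lif, at -1.33 and -1.48, rested on 109 and 53 UMIs. Tnfaip6, which was also lower in case, is itself a gene of the inflammatory response, and the part of these genes in its difference was not tested.

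To describe how the members vary within fibroblasts, the 2110 fibroblast-like cells were clustered on other genes, with the 10 members and 44 other pathway genes left out. This gave 8 sub-clusters, whose levels are a description with no test. Sub-cluster 3, led by Il1rl1, Cd55, Ptges and Cyp1b1 among the genes used for clustering, held the highest levels of Gfpt2, Uap1, Ugdh, Has2 and Tnfaip6 over both libraries, although in case alone Uap1 was higher in sub-cluster 1. It was 6.67% of control (48 cells) and 24.3% of case fibroblast-like cells (338 cells). Sub-cluster 1, led by Foxs1, Il6 and Ptgs2, was 31.8% and 23.0%, and sub-cluster 2, led by Fos, Btg2 and Txnip, was 30.6% and 17.6%. Most of the other cells lay in sub-cluster 4 (Col8a1, Cilp and Postn, 19 control and 363 case cells) and sub-cluster 5 (Sfrp4 and Pi16, 119 and 43 cells). Sub-cluster 6 was shallow, with a median of 1350 UMIs, carried the VSMC markers Tagln and Myl9 among its leading genes and is not given a cell type here. It held 1.08% of control and 0.595% of case fibroblast-like UMIs.

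Gfpt2 separated the sub-clusters. In control it was at 6914 (6720 to 7112) in sub-cluster 3, 2415 (2360 to 2470) in sub-cluster 1, 1406 (1338 to 1477) in sub-cluster 5 and 190 (172 to 210) in sub-cluster 2. In case the same sub-clusters held 5101, 2600, 1817 and 260. The order of these 4 sub-clusters was the same in both libraries, with intervals that did not overlap. Sub-cluster 4 held 460 (357 to 583) in control and 449 (417 to 484) in case.

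Has2 was concentrated in sub-cluster 3 and Has1 was not. Sub-cluster 3 held 66.4% of the Has2 UMIs of control fibroblast-like cells and 79.3% of those of case, with 9.14% and 28.9% of all UMIs. Its Has2 level was 1340 (1255 to 1428) in control and 487 (458 to 517) in case, and the other sub-clusters reached at most 136 and 161. For Has1, sub-cluster 3 held 7.61% of the UMIs in control and 32.2% in case. Has1 was at 676, 583, 485, 581 and 528 in control sub-clusters 1 to 5, and at 590, 454, 540, 307 and 784 in case. In sub-cluster 8, led by Apod and Myoc, Has1 was at 96.8 and 116 on 15 and 9 cells.

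**Figure D4:**
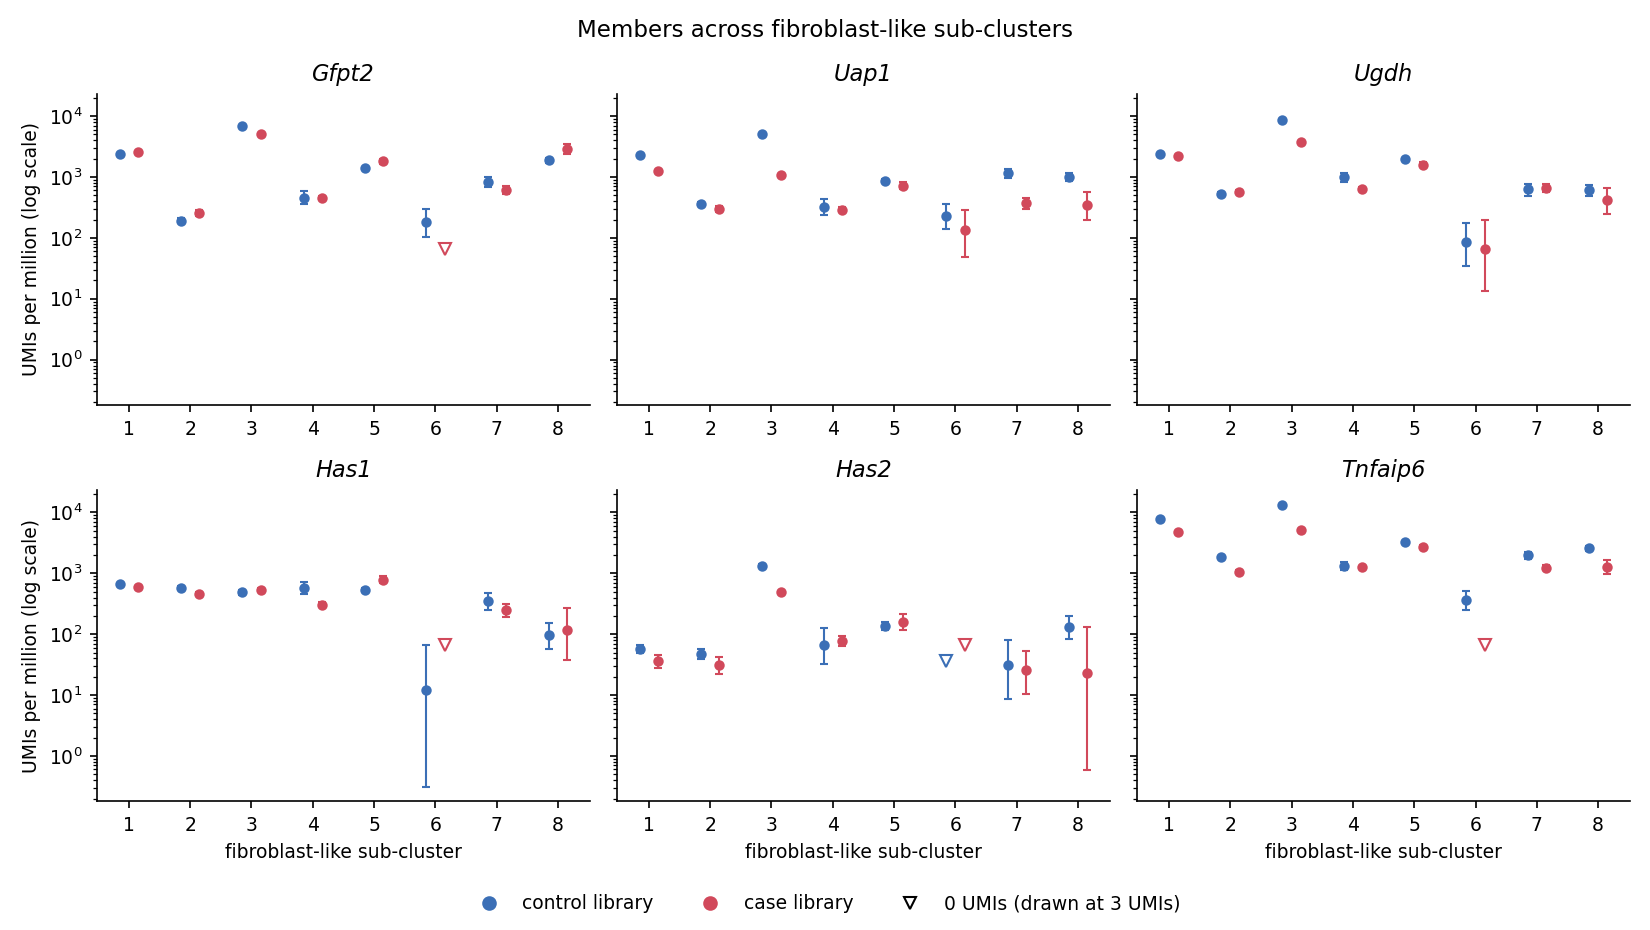
Level of 6 members (CPM, log axis) in the 8 fibroblast-like sub-clusters of each library, with exact 95% Poisson bars and open triangles at 3 UMIs for a count of 0. Has2 stood at 1340 and 487 in sub-cluster 3 and at or below 161 elsewhere, while Has1 lay between 307 and 784 in sub-clusters 1 to 5.

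Sub-cluster 3 also held the highest level of Ugdh, at 8750 (8532 to 8972) in control and 3707 (3627 to 3788) in case. Ugdh was at 2343 and 2225 in sub-cluster 1, and at 534 and 571 in sub-cluster 2. Uap1 was at 4986 (4822 to 5155) in control sub-cluster 3, at 2316 in sub-cluster 1 and at 364 in sub-cluster 2. Tnfaip6 was at 13471, 7714 and 1863 in the same control sub-clusters. Gfpt1 varied less, from 145 to 299 over control sub-clusters 1 to 5.

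Sub-clusters 1 and 3, with high Gfpt2, were lower in the immediate-early list than sub-clusters 2 and 5. The immediate-early and inflammatory genes were not left out of the clustering. Differences in their sums therefore describe how the sub-clusters were made. The 10 genes of this list, with the heat shock gene Hspa1b among them, summed to 6475 CPM in control sub-cluster 3 and 6898 in sub-cluster 1. They summed to 30664 in sub-cluster 2 and 29131 in sub-cluster 5, and the part of Hspa1b in each sum is not given here. In case the sums were 7106, 11687, 35341 and 27829. Sub-cluster 4, also with low Gfpt2, held 39837 in control and 36971 in case. The shallow sub-cluster 6 went the other way, with sums of 3068 and 1190 and Gfpt2 at 117 over both libraries. The inflammatory list summed to 23212 in control sub-cluster 3 and 17182 in sub-cluster 1, and to 6229 and 6903 in sub-clusters 2 and 5. In case it was 7461 in sub-cluster 3 and 12926 in sub-cluster 1, and 3996 and 6789 in sub-clusters 2 and 5, so sub-clusters 3 and 5 were close. Whether digestion of the tissue had a part in the levels of the members was not tested.

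Within sub-clusters, Uap1 was lower in case in each of the 4 that held at least 40 cells in both libraries. Its log2 ratio was -0.87 (-0.94 to -0.81) in sub-cluster 1, -0.29 (-0.47 to -0.11) in sub-cluster 2, -2.20 (-2.28 to -2.13) in sub-cluster 3 and -0.27 (-0.50 to -0.04) in sub-cluster 5. Tnfaip6 was lower in each as well, at -0.67, -0.80, -1.38 and -0.31. Gfpt2 was higher in sub-clusters 1, 2 and 5, at 0.11, 0.45 and 0.37, and lower in sub-cluster 3, at -0.44 (-0.49 to -0.39). Has2 was lower in sub-clusters 1, 2 and 3, at -0.68 (-1.09 to -0.27), -0.63 (-1.21 to -0.08) and -1.46 (-1.59 to -1.33). In sub-cluster 5 it was at 0.25 (-0.28 to 0.75). In sub-cluster 3, 4 of 7 members compared were at least 2-fold lower in case (Uap1, Ugdh, Has2 and Tnfaip6), where 6.74% of 4719 genes were. In sub-clusters 1, 2 and 5, 0 of 7 were, where 6.98%, 3.46% and 5.72% of genes were lower.

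The comparison within sub-cluster 3 depends on how finely the cells are divided. At a resolution of 0.8 in place of 0.5 its cells split mainly into a small and a larger group. The small group held 32 control and 36 case cells, and the larger group 17 control and 316 case cells. In the larger group Il1rl1 was at 216 CPM in control and 386 in case, and Cd55 at 25.9 and 107. The small group held Il1rl1 at 0 and 48.1 and Cd55 at 1639 and 2081, so these 2 leading genes of sub-cluster 3 were highest in different groups. In the small group Has2 was at 1795 in control and 1463 in case, with a log2 ratio of -0.30 (-0.47 to -0.13), Ugdh was at 10698 and 8887 (-0.27, -0.34 to -0.20), and Tnfaip6 was at 16780 and 12187 (-0.46, -0.52 to -0.40). Gfpt2 was at 8174 and 9395 there, with a ratio of 0.20 (0.13 to 0.27). Uap1 alone among the 7 members compared remained past 2-fold, at 6414 and 2507 (-1.36, -1.47 to -1.24), where 7.64% of 2082 genes were lower. The larger group held Gfpt2 at 4260 in control and 4450 in case and Has2 at 302 and 327. The levels of Uap1, Ugdh, Tnfaip6, Gfpt1 and Has1 in the larger group were lower in case, on 17 control cells and without intervals. Uap1 was at 1728 and 896, Ugdh at 4251 and 2923, and Tnfaip6 at 5988 and 4102. Gfpt1 was at 436 and 310 and Has1 at 635 and 561. The small group thus held similar levels of Has2 and Ugdh in both libraries (within 2-fold), and the larger group, with lower levels, lay mostly in case.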

How the data were processed

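The deposited values are raw UMI counts, 1 for each pair of gene and barcode, which the authors obtained from Cell Ranger 3.1.0 and the build Rnor_6.0 (the annotation release is not given in the sources used here), for 2 libraries of 3321 and 5656 barcodes with 24968329 and 28232614 UMIs. The study removed outlying cells without giving limits. With limits chosen here, barcodes over 20% mitochondrial UMIs, or more than 2 SD from the mean of log UMIs or genes, or off the line relating them by 3 robust SDs, were left out, which kept more cells than the study states. Cells were assigned to types from marker genes per 10000 UMIs, by limits set after the data were seen. Counts were summed per type and library with Python 3.11.15 and scipy 1.17.1. Poisson, binomial and conditional intervals are exact (95%). With 1 library per group no p-value was computed, and genes with at least 50 UMIs over both sums were called past 2-fold. The counting scripts were tested on simulated data. Fibroblast-like cells were sub-clustered with scanpy 1.11.5 and Leiden at resolution 0.5. Scrublet called 42 control cells (1.55%) but 2 case cells (0.0407%), at an expected rate of 5%, so no doublets were removed. Members and lists were chosen with earlier results of these data known. Every member is named, with listed genes past 2-fold in fibroblast-like cells (up to 4 a list) and the 5 genes most like Gfpt2. Gnpnat1, Ugp2 and Vcan were named after their values were seen. Alternatives covered filters, depth, cell assignment, doublets, TMM scaling (edgeR 4.0.16) and the fold limit.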

Additional observations from a re-analysis of the deposited data

Results flagged for a closer look

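The case over control ratios of 3 members pointed in different directions in different cell types, with counting intervals on opposite sides of 0, and the differences between types were not tested. Uap1 had a log2 ratio of -0.24 in VSMC-like and -1.08 in fibroblast-like cells and of 0.54 in endothelial-like cells, the last being -0.20 after thinning to 1000 UMIs. Ugdh was at 0.36 in VSMC-like and 0.55 in endothelial-like cells and at -0.19 in fibroblast-like cells, and after thinning the VSMC-like and fibroblast-like values were 0.03 and -0.08. Has1 was at 0.84 in VSMC-like and -0.27 in fibroblast-like cells, and its VSMC-like value, which rests on low counts, was -0.05 after thinning.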

How the results depend on the processing

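No paired analysis was possible because each library pools both rats and there is 1 library per group, and for the same reason no replicate could be left out. Of 14 alternatives, 3 were chosen after seeing the data (without the shallow sub-cluster 6, without the haemoglobin-led cluster, without barcode sequences found in both libraries), and none of these 3 changed a count of members past 2-fold. The counts of members at least 2-fold higher in fibroblast-like than in VSMC-like cells (7 in control, 6 in case) were the same under the alternatives run for them, except 6 of 7 compared in control after thinning to 1000 UMIs, and 7 in case with TMM factors or at 1.5-fold. In VSMC-like cells the count of higher members went from 0 to 1 with Leiden clusters as cell types (Has1, 1.28), and to 2 without the called doublets (Has1, 1.479, and Gfpt2, 1.05) or with a limit of 1.5-fold. Leaving out the called doublets took 17 control but 1 case VSMC-like cell, so it acts almost on control alone. The count of lower ones went from 0 to 1 after thinning to 1000 UMIs (Tnfaip6, -1.34) or at 1.5-fold. In fibroblast-like cells the count of lower members went from 1 to 0 after thinning (Uap1, -0.93) and to 2 at 1.5-fold. In endothelial-like cells 1 member was higher with Leiden clusters. The count of lower members was 0 under a stricter gate, after thinning, when none could be compared, and with a minimum of 200 UMIs. In these settings Hyal2 had too few UMIs to be compared. Under the stricter gate its log2 ratio was -2.30. Endothelial-like Hyal2 turned from -1.75 to 0.37 after thinning. The causes were not tested. The share of all genes past the limit was not computed under the alternatives, so the counts under them are not a result about the members. Of 220 log2 ratios under the alternatives, 205 had the sign reported. By a narrower measure, 184 of them lay within the counting interval of the reported ratio and 35 lay outside it. In the remaining 1, endothelial-like Hyal2 after thinning, a ratio called past 2-fold changed sign. Some of the 220 ratios could not differ from the reported ones. Leaving out sub-cluster 6 does not touch VSMC-like or endothelial-like cells, and no endothelial-like cell was called a doublet. With cells thinned to 2000 UMIs, detection in fibroblast-like cells was 55.4% and 63.7% for Gfpt2 in control and case, 53.8% and 45.1% for Has1, and 12.1% and 12.1% for Has2. The share of Has2 UMIs in the sub-cluster with most Has2 was 72.8% at resolution 0.5, 75.4% at 0.3 and 46.8% at 0.8. That sub-cluster differed in size, with 18.3%, 36.6% and 3.22% of fibroblast-like cells (386, 772 and 68 cells). Its Has2 level over both libraries was 692, 428 and 1670 CPM. Depth limits Has3, Hyal1 and Hyal2 outside endothelial-like cells, and Gfpt2 in macrophage-like cells, at 0 UMIs in control, where 3 UMIs would be 8.23 CPM and the exact upper limit is 10.1 CPM.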

Other observations

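Cells were also clustered in each library on its own. The control cluster with most Has2 held 35 cells, Has2 at 1683 CPM and 64.1% of the Has2 UMIs of fibroblast-like cells. In case it held 344 cells, Has2 at 489 and 80.8% of these UMIs. Il1rl1, a receptor of interleukin-33, was at 0 UMIs in the control cluster and at 349.9 CPM in the case cluster, and Cd55, a complement regulator, was at 1483 and 372. Il1rl1 was not absent from control, where 96.3% of its fibroblast-like UMIs lay in another cluster (215 cells, 17.5 CPM). These clusters rest on 1 resolution, and in the finer joint clustering a group of similar size, with Has2 at 1795 and 1463 CPM, was found in both libraries (32 control and 36 case cells). Outside the members, Hk2 was past 2-fold in endothelial-like cells as well, at 62.9 CPM in control and 259 in case, a log2 ratio of 2.04 (1.44 to 2.70) on 25 and 230 UMIs.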
